A study of Mus musculus with 4 samples.

Results

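The beta crystallins of the mouse lens were measured as 6 genes, Cryba1, Cryba2, Cryba4, Crybb1, Crybb2 and Crybb3, out of 11516 genes tested on the arrays. They were chosen by gene symbol, and all 8 probes that carry one of these symbols were kept, since every one was detected on all 4 arrays. The arrays compared lenses of Celf1 cKO mice with lenses of Control mice at postnatal day 6 (n = 2 lenses in each group, 1 lens per replicate). The cKO mice carried a germline Celf1 lacZKI allele, a Celf1 flox allele in which an exon lies between loxP sites, and Pax6GFPCre, whose Cre is active in the lens from the placode stage and in cells of the pancreatic lineage. The Control mice carried Celf1 lacZKI beside a wild-type allele, so that all 4 lenses came from mice with a lacZKI allele, and the Cre state of these Control mice was not given in the sources used here. All mice were of a mixed C57BL/6J and FVB background. The replicates, called A and B in each group, were separate lenses, but whether they came from separate animals or litters was not stated. Xist was detected by 4 of 4 probes on each cKO array and by 0 of 4 on each Control array, so sex and genotype cannot be told apart here.

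Crystallins are the soluble proteins that fill the fiber cells of the lens and give it its transparency and its refractive power. Beta crystallins belong with the gamma crystallins to a superfamily built from Greek key motifs, and they associate with each other into dimers and larger oligomers, whereas gamma crystallins stay monomers and alpha crystallins act as small heat shock proteins. The acidic beta crystallins are made from Cryba1, Cryba2 and Cryba4, and the basic ones from Crybb1, Crybb2 and Crybb3. Mutations in several of them cause cataract in humans and mice. CELF1 is an RNA-binding protein that acts on splicing, stability and translation of its target mRNAs, and the comparison asks how the transcripts of the lens differ when it is lost.

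None of the 6 beta crystallins was called changed in the cKO lenses, where a call needed an adjusted p under 0.05, a log2 fold change over 0.58 in either direction and a mean log2 signal over 4.6. Their log2 fold changes lay between -0.19 for Cryba2 and 0.14 for Cryba4, with a median of -0.08 against 0.01 over all genes. Single lenses moved these limits, since Cryba4 was at 0.01 without cKO B and 0.27 without cKO A, and Crybb3 was the lowest member without cKO A, at -0.25. Among all genes tested 11.7% were called, so that 0 of 6 is near the background share and is no result about the family. The direction of these differences depended on how the arrays were scaled to each other, and the unnormalized values are therefore given first. In the table that the authors normalized, the values of all 6 genes were lower in both cKO lenses than in both Control lenses. The same held for 33.0% of all genes. There 0 of the 6 were called (adjusted p from 0.0875 to 0.166, limma), where 0.0608% of all genes were called. Once 16 was added to that table, 3 of the 6 were called reduced, against 5.71% of all genes. In such bulk samples a lower value from fewer fiber cells and one from less RNA per cell cannot be told apart.

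The probes of the members can be compared base by base. Each probe is 50 bases long. The probe for Crybb1, a probe for Cryba1 and a probe for Crybb3 cover related stretches of their mRNAs, and aligned without gaps on 39 shared positions they carry the same base at 20, which are in capitals below. The brighter Cryba1 probe and the Crybb2 probe, which lie outside this stretch, are in lower case. The sequences are shown because the array reads each member through such a stretch only. The genes of the Cryba1 probes lie on chromosome 11, and those of the Crybb1 and Crybb3 probes on chromosome 5.
Cryba1, dimmer probe: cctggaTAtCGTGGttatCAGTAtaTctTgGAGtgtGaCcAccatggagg
Crybb1: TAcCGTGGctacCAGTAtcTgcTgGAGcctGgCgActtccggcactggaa
Crybb3, brighter probe: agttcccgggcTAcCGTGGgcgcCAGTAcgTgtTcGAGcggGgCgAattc
Cryba1, brighter probe: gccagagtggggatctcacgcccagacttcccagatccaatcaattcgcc
Crybb2: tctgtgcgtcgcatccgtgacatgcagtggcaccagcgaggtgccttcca

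The closest pair of member probes was Crybb1 and Crybb3, with 29 identical bases of 39 aligned. Cryba1 and Crybb1 shared 27 of 44, and Cryba1 and Crybb3 shared 26 of 45. For comparison, the most similar probe of any gene outside the family shared 32 of 49 bases with the brighter Cryba1 probe. This was the largest such value over the 8 probes. Its share of identical bases, 65.3%, lay below the 74.4% of Crybb1 and Crybb3. It lay above the 61.4% of Cryba1 and Crybb1 and the 57.8% of Cryba1 and Crybb3. Whether any signal was shared between members through the likeness of their probes was not tested. In the probe annotation the Cryba1 probes lie at positions 77532335 to 77532384 (dimmer) and 77534963 to 77535012 (brighter) on the minus strand, the Crybb1 probe at 112698362 to 112698411 on the plus strand and the Crybb3 probe at 113505007 to 113505056 on the minus strand, and the genome build of these positions is not given in the sources used here. By the RefSeq table (assembly GRCm38.p6), Cryba4 and Crybb1 are neighbouring protein-coding genes on chromosome 5, Crybb2 and Crybb3 are likewise neighbours there, and Cryba2 lies on chromosome 1.

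The beta crystallins were among the brightest features on the arrays. On each of the 4 arrays the 7 brighter probes lay within ranks 1 to 16 of 45263, with unnormalized intensities between 24008.0 and 40379.5. The eighth, a further probe for Crybb3 designed from a Riken clone, was far dimmer and held ranks 330 to 588. Between 24 and 50 beads stood behind each value. Their standard error ran from 3.0% to 6.64% of the signal in cKO A, cKO B and Control A, and was larger on Control B, at 5.0% to 13.38%. Control B gave the lowest value for 6 of the 8 probes.

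Cryba1 encodes the beta A3 and beta A1 crystallins from a single mRNA. Its brighter probe read 37620.3 in cKO A, 38212.7 in cKO B, 37994.2 in Control A and 26926.4 in Control B. Only Control B stood apart, and the groups overlapped. Its dimmer probe read 28184.7, 29486.7, 31501.0 and 27717.9 in the same order, again with overlap. After quantile normalization, which gives every array the same distribution of values, the mean of the probes was 14.91 and 14.94 in the cKO lenses and 15.04 and 15.06 in the Control lenses on the log2 scale. Both cKO values then lay below both Control values. The log2 fold change was -0.12 ± 0.14 (SE as moderated by limma, here and below, n = 2 per group). Its 95% confidence interval was -0.44 to 0.20, with an adjusted p of 0.573 by limma. This SE draws on the variance of all genes, while the lenses themselves had an SD of 0.02 in cKO and 0.012 in Control. The probes differed in sign, with 0.06 for the brighter and -0.30 for the dimmer, and neither was called when tested alone (adjusted p of 0.832 and 0.237).

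Cryba2, the beta A2 crystallin, had the lowest fold change of the family. Its probe read 36301.9 in cKO A, 33616.9 in cKO B, 37896.5 in Control A and 35285.9 in Control B, so the groups overlapped before normalization. It was the brightest probe of the whole Control B array and rank 5 on Control A, and it held ranks 7 and 9 in cKO A and cKO B. After quantile normalization the values were 15.06 and 14.97 in cKO and 15.13 and 15.27 in Control, without overlap. The log2 fold change was -0.19 ± 0.14 (95% confidence interval -0.53 to 0.15, adjusted p = 0.403, limma).

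Cryba4, the beta A4 crystallin, read 35948.3 in cKO A, 38961.2 in cKO B, 32072.8 in Control A and 25899.1 in Control B. Here both cKO lenses were above both Control lenses before normalization. The normalized values were 14.97 and 15.23 in cKO and 14.95 and 14.97 in Control, where cKO A and Control B met. The log2 fold change was 0.14 ± 0.15 (95% confidence interval -0.22 to 0.50, adjusted p = 0.565, limma).

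Among the basic members, Crybb1 read 40379.5 in cKO A, 37088.0 in cKO B, 39614.6 in Control A and 30925.8 in Control B. The groups overlapped, and the log2 fold change after normalization was -0.05 ± 0.14 (95% confidence interval -0.39 to 0.29, adjusted p = 0.84, limma). Crybb2, which encodes the most abundant beta crystallin of the mature lens, read 38740.8, 37362.6, 32812.6 and 33285.8 in the same order. Both cKO lenses were higher before normalization. After it the values were 15.19 and 15.10 in cKO and 14.97 and 15.19 in Control, which overlapped, and the log2 fold change was 0.07 ± 0.15 (95% confidence interval -0.29 to 0.42, adjusted p = 0.797, limma).

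The brighter Crybb3 probe read 38722.0 in cKO A, 38229.2 in cKO B, 37784.8 in Control A and 24008.0 in Control B. The cKO lenses were both higher, with Control A close to them and Control B far below. The dimmer probe read 3711.4, 2632.1, 2526.3 and 2295.6, and cKO A alone was clearly above the rest. Averaged over both probes the log2 fold change was -0.11 ± 0.16 (95% confidence interval -0.48 to 0.26, adjusted p = 0.664, limma). The probes again differed in sign after normalization, with 0.20 ± 0.16 for the brighter and -0.42 ± 0.22 for the dimmer probe, and neither was called (adjusted p of 0.447 and 0.249). Of all 16262 probes tested alone 11.3% were called, and of the 8 member probes 0.

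**Figure D1:**
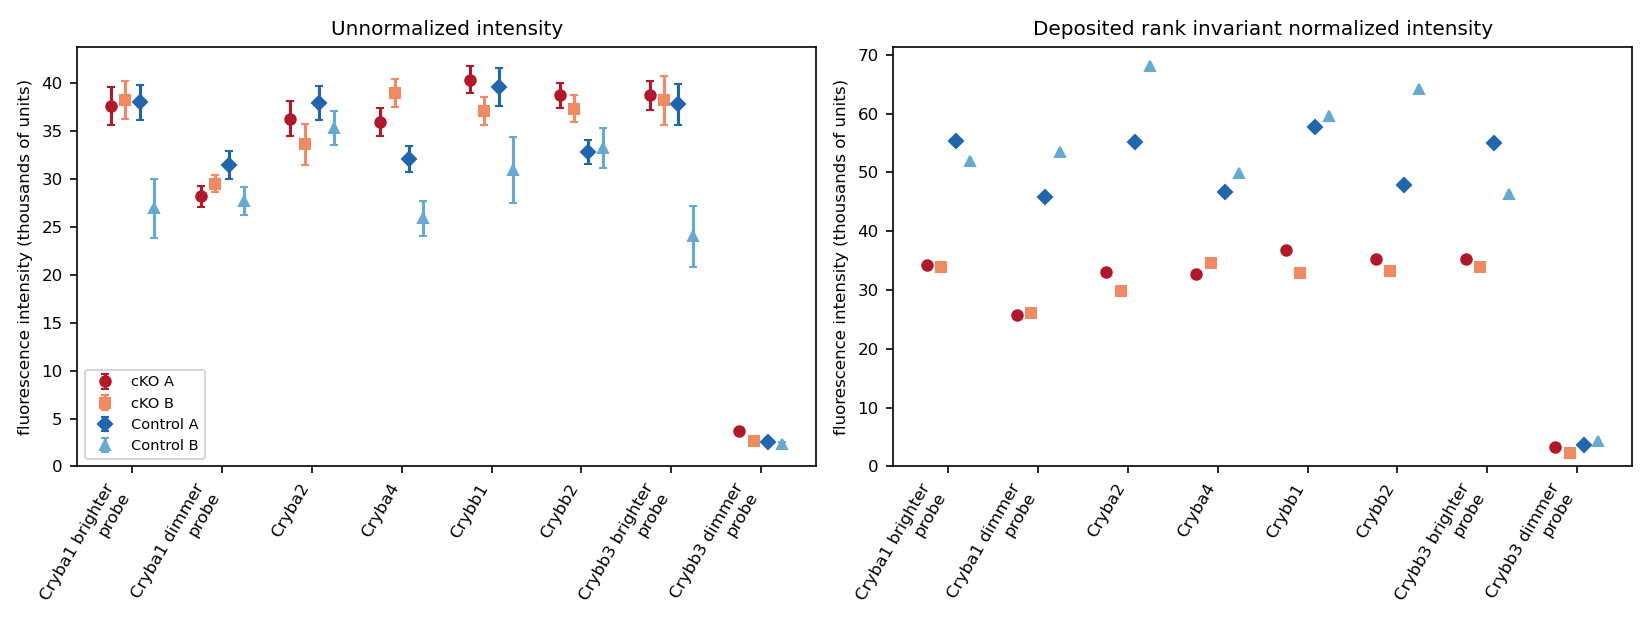
Fluorescence intensity of the 8 beta crystallin probes in each of the 4 lenses, unnormalized on the left with the standard error over beads as bars, and as normalized by the authors on the right. On the left the groups overlap for 4 probes and the cKO lenses are higher for 4, while on the right both cKO lenses lie below both Control lenses for all 8.

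Over the family, 4 of the 8 probes had both unnormalized cKO values above both Control values and 0 had both below. The same order was found for 75.8% of all detected probes, and the opposite one for 3.03%. The cKO arrays were brighter as a whole and detected 16261 (cKO A) and 16925 (cKO B) probes, more than the 14542 of Control A and the 14180 of Control B. The gap in brightness was smaller among the brightest probes. The mean cKO intensity exceeded the mean Control intensity 1.09 times at rank 1 and 1.19 times at rank 10, where the beta crystallins lie, against 1.43 times at rank 100 and 1.77 times at rank 1000.

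**Figure D2:**
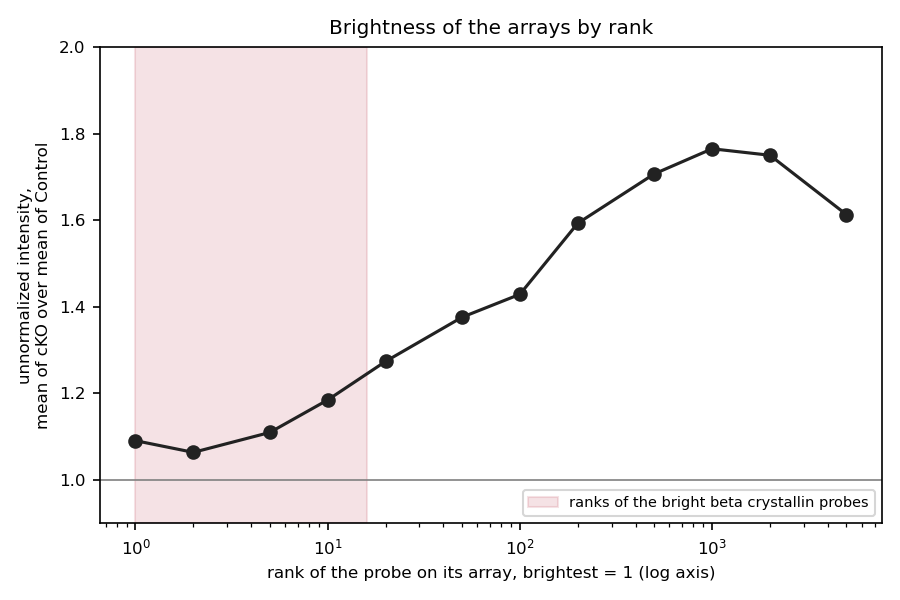
Mean unnormalized intensity of the cKO arrays divided by that of the Control arrays (vertical axis) for the probe at each rank of brightness on its own array (horizontal axis, logarithmic). The ratio is 1.09 at rank 1 and 1.77 at rank 1000, and the shaded ranks 1 to 16 hold the bright beta crystallin probes.

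The values after quantile normalization follow from these ranks. The probe of rank 2 receives the same log2 value, 15.23, on each array, and this value fell to Crybb1 on cKO A and on Control A and to Cryba4 on cKO B. Differences among the bright members after quantile normalization are therefore differences in rank among about the same few probes. Both cKO values lay below both Control values for 2 of the 6 genes, Cryba1 and Cryba2, against 29.7% of all genes.

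Other scalings moved the whole family. In the table normalized by the authors with a rank invariant method, the values of Cryba2 were 33094.2 and 29849.9 in cKO and 55240.5 and 68061.3 in Control, and those of Cryba4 were 32771.5 and 34601.2 in cKO and 46741.8 and 49935.7 in Control. That table is close to a straight line of the unnormalized one on each array, whose slope was 0.91 (cKO A) and 0.89 (cKO B) but 1.46 (Control A) and 1.93 (Control B). All 6 members had both cKO values below both Control values there, and their log2 fold changes ran from -0.96 for Cryba2 to -0.52 for Cryba4 with a median of -0.72. Only 7 of all genes were called there. With 16 added to each value before the logarithm, as in the main analysis, 3 members were called reduced, namely Cryba1, Cryba2 and Crybb1 (adjusted p of 0.024, 0.0225 and 0.029, limma), against 5.71% of all genes.

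Cyclic loess, which fits the difference between arrays as a smooth function of brightness, gave log2 fold changes from -0.60 for Cryba2 to -0.16 for Cryba4, and Cryba2 was called reduced (adjusted p = 0.0463, limma), against 5.88% of all genes. Giving the arrays a common median of those probes that every sample detected led to 3 members called reduced, Cryba1, Cryba2 and Crybb1, against 17.6% of all genes, and moved the median of all genes to -0.19. Setting them to the same mean over the 20 brightest probes of other genes, a choice made after seeing the data, gave 1 member called reduced, Cryba2, against 6.91% of all genes. With the arrays set to the same median over all probes or left unscaled, 5 of 6 members were higher in cKO, but all genes then had a median of 0.53 and 0.57. Relative to the median of all genes, all 6 members were lower in cKO under each of these scalings except the quantile ones, where 4 of 6 were lower. Cryba2 was the member of lowest log2 fold change under every scaling tried, and it was below 0 under each of them.

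**Figure D3:**
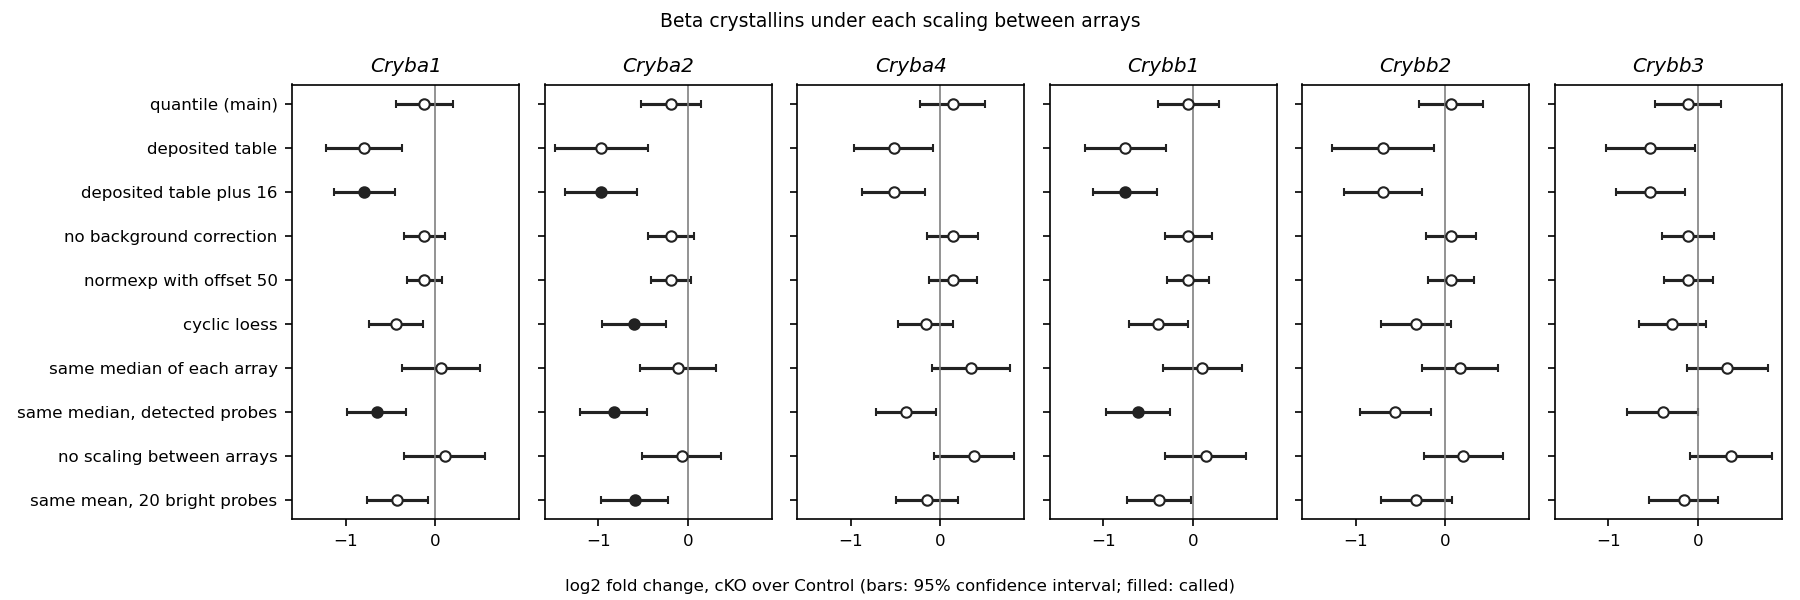
Log2 fold change of cKO over Control (horizontal axis) for each of the 6 beta crystallins under 10 ways of correcting and scaling the arrays (rows), with the 95% confidence interval as bars and filled points for called genes. Every point for Cryba2 lies left of 0, while those of the other 5 genes lie on either side of it depending on the scaling.

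A difference between members on the same array does not depend on a constant scaling of that array. Without normalization, the log2 intensity of Cryba2 minus that of Cryba4 was 0.01 in cKO A, -0.21 in cKO B, 0.24 in Control A and 0.45 in Control B. The groups did not overlap, and the mean difference changed by -0.44. This pair was chosen because it differed most of the 15 pairs of members, so no test is given. A difference of this kind bears on the proportion of the members to each other and does not show which of them moved. The mean of the acidic members minus that of the basic ones was 0.40 and 0.56 in cKO and 0.58 and 0.57 in Control, with the groups apart by less than the cKO lenses were from each other.

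The other lens crystallins were compared with the same fit. The alpha crystallins Cryaa and Cryab, chaperones of the small heat shock family, had log2 fold changes of -0.21 ± 0.14 and -0.24 ± 0.15, and 0 of 2 were called. Cryaa was called reduced in the deposited table with 16 added (-0.83, adjusted p = 0.0222, limma) and with the median of commonly detected probes (-0.70, adjusted p = 0.0138, limma), and both genes were above 0 with the same median of each array or no scaling. Of the 8 gamma crystallins 4 were called reduced, against 5.66% of all genes: Crygf with -2.77 ± 0.22, Cryge with -0.97 ± 0.15, Cryga with -0.67 ± 0.14 and Crygb with -0.58 ± 0.15 (adjusted p of 0.00241, 0.014, 0.0322 and 0.0476, limma). Several gamma crystallin genes are close copies of each other. Their probes were not aligned here, and whether signal was shared between them was not tested. The other 4, Crygc (-0.02), Crygd (-0.01), Crygn (-0.23) and Crygs (-0.07), were not called. The 4 called genes kept their direction under each scaling, but the number of gamma crystallins called ranged from 0 in the deposited table, where 0.0174% of all genes were called reduced, to 8 in that table with 16 added, where 5.71% were. It was 1 with the same median of each array or no scaling, where 1.25% and 1.15% of all genes were called reduced. The median was -0.40 for the gamma crystallins, -0.22 for the alpha and -0.08 for the beta crystallins. Relative to the median of all genes, that of the gamma crystallins ran from -0.87 to -0.41 over the 10 settings and that of the beta crystallins from -0.70 to -0.08, and it was the lower of the pair in each setting. Without normalization, the mean log2 intensity of the beta crystallins minus that of the gamma crystallins on the same array was 1.57 and 1.65 in cKO and 1.19 in both Control lenses, a change of 0.42. Much of this change came with Crygf, and without that gene, left out after seeing the data, the difference was 0.86 and 0.89 in cKO and 0.69 and 0.70 in Control, a change of 0.18. The same difference against the alpha crystallins was 0.83 and 0.64 in cKO and 0.71 and 0.67 in Control, with overlap and a change of 0.04. The size of such a difference also depends on the probes, and its change depends on the scaling too, since the arrays differed by an amount that varied with brightness. With the quantile normalized values the change was 0.62 against the gamma crystallins, 0.32 without Crygf, and 0.18 against the alpha crystallins, where the groups no longer overlapped.

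The called crystallin probes differed in brightness, with mean unnormalized intensities of 696.0 for Crygf, 780.9 for Cryge and 18675.6 for Cryga, the last just below the level used next. Of the 21 crystallin probes tested, the 16 with a mean unnormalized intensity over 20000, 7 of them for beta crystallins, had log2 fold changes between -0.58 and 0.20 and 0 were called. The lowest of them was the Crygb probe, which missed the threshold when tested as a single probe (adjusted p = 0.0575, limma). Of the 5 at or below that level, 3 were called, all of them for gamma crystallins. The only beta crystallin probe at or below it was the dimmer Crybb3 probe, at -0.42. Among all 16262 probes tested alone 11.3% were called, and 0 of 16 is not far from that share. This level was set after seeing the values, so the split is a description.

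**Figure D4:**
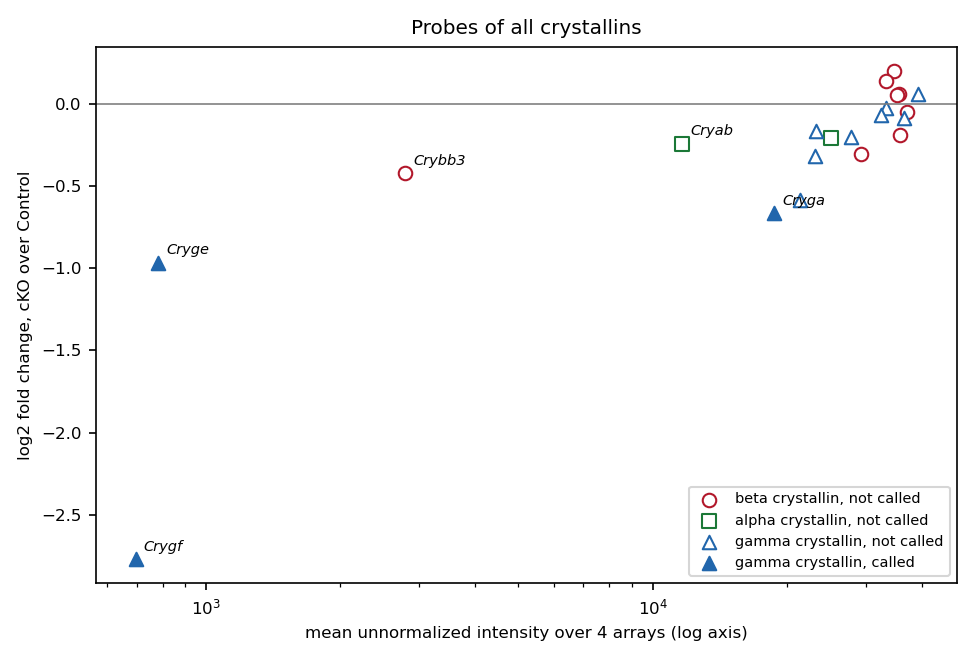
Log2 fold change of cKO over Control (vertical axis) against the mean unnormalized intensity over the 4 arrays (horizontal axis, logarithmic) for each probe of a beta, alpha or gamma crystallin, with filled symbols for called probes. The 3 called probes, for Crygf, Cryge and Cryga, all have a mean intensity under 20000, where a single beta crystallin probe lies.

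Genes known to act on crystallin expression were examined next. Of 21 such transcription factors and cofactors 16 were tested, 3 were called reduced, against 5.66% of all genes, and 0 elevated, with a median log2 fold change of -0.22. Maf, a transcription factor that binds crystallin promoters and drives fiber differentiation, had -1.16 ± 0.18 (adjusted p = 0.015, limma). Its log2 signal was 6.42 and 6.02 in cKO and 7.27 and 7.49 in Control, without overlap. Foxe3, a factor of the lens epithelium, had -0.82 ± 0.14, and Tfap2a, a factor of early lens and epithelium, had -0.81 ± 0.18 (adjusted p of 0.0176 and 0.0372, limma). Foxe3 was not called without background correction (-0.505) or with another such correction, normexp at offset 50 (-0.419). Tfap2a was called under both but not with the 20 bright probes (-0.565), where Foxe3 was. Of 16 genes of fiber differentiation 14 were tested, of which 7 were called reduced, against the same 5.66%, and 0 elevated, with a median of -0.65. The 4 with the largest change were Lctl (-1.64), Dnase2b (-1.62), the nuclease that degrades fiber cell DNA, Birc7 (-1.44) and Caprin2 (-0.89), an RNA-binding protein. These named regulators and fiber genes were below 0 under each scaling, but 0 of either list were called in the deposited table, where 0.0608% of all genes were. With the same median of each array 4 regulators and 2 fiber genes were called elevated, below the 45.8% of all genes, and 0 regulators and 3 fiber genes reduced, against 1.25% of all genes. Of the genes with a beta gamma crystallin domain that act outside the lens, 1 of 3 was tested and was not called (Crybg1, 0.49 ± 0.20). Of 4 enzyme crystallins 2 were tested and 0 called.

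The targeted gene was measured in each sample. The log2 signal of Celf1 was 7.51 in cKO A, 7.01 in cKO B, 8.78 in Control A and 8.62 in Control B, a log2 fold change of -1.44 ± 0.20 (adjusted p = 0.0107, limma). Markers of lens fiber were present, with 6 of 6 tested and 1 called reduced, against 5.66% of all genes. Their median log2 fold change was -0.42, with 5 of 6 below 0. Both cKO values lay below both Control values for 4 of 6, against 29.7% of all genes. Their mean log2 signal was 11.62 and 11.39 in cKO and 11.84 and 11.93 in Control. Of lens epithelium 5 of 5 were tested and 1 was called reduced, with a median of -0.54 and 4 of 5 below 0. The part of either cell type in the values above was not tested. Of markers of other tissues, 1 of 7 for retina, 1 of 6 for pigment cells, 3 of 4 for blood, 4 of 5 for vessels and 3 of 5 for macrophages were tested, and 0 of 4 each for muscle and cornea. Of the blood markers Slc4a1 was reduced (-1.05), while the hemoglobin genes Hba-a1 (-0.08 ± 0.38) and Hbb-b1 (0.05 ± 0.34) were not called. Of the 3 macrophage markers tested Csf1r (-0.11 ± 0.15) was not called, and C1qb (0.74) and Cd68 (0.69) were elevated. Neither kept its call without background correction (0.478 and 0.419). The same held with the same median over commonly detected probes (0.161 and 0.151) and with the 20 bright probes (0.395 and 0.385). Both were called with the same median of each array (0.883 and 0.873), as were 45.8% of all genes. The mean log2 signal of the tested macrophage markers was 5.01 and 4.99 in cKO and 4.55 and 4.58 in Control, and their part in the values above was not tested.

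The genes whose pattern over the 4 arrays was most like the mean of the beta crystallins were Spata24, Faf1 and Hmg20b. Likeness was the root mean square difference of centred log2 signal, and it was 0.0089, 0.0090 and 0.0099 for them. The mean centred profile of the members itself was nearly flat, at 0.01 and -0.05 in cKO and 0.00 and 0.05 in Control, so any gene of near constant signal can come close to it. The members differed more from their own mean than these genes did, from 0.05 for Cryba1 to 0.15 for Cryba4.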

How the data were processed

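Total RNA of P6 lenses was hybridized to MouseWG-6 v2.0 BeadChips. The deposited tables give, per probe and array, an unnormalized intensity, an intensity that the authors normalized by the rank invariant method per the file headers, the deposited standard error of the signal over beads, the bead number, and a deposited detection p-value, which was taken from the normalized table. Of 45281 probes, 18 lines with shifted columns were left out. Unnormalized intensities were background corrected, log2 transformed (offset 16) and quantile normalized with neqc of limma (version 3.58.1, R 4.3.3). A probe was kept where 2 or more samples had a detection p-value below 0.05 (16262 probes), and probes of 1 gene were averaged on the log2 scale. Two-sided tests used lmFit and eBayes with Benjamini-Hochberg adjustment over all 11516 genes. The study used edgeR, a model for counts, which was not applied to intensities. The number of arrays limits the precision. With eBayes the variance of each gene is drawn toward a value shared by all genes. Each SE, confidence interval and p-value therefore rests in part on the other genes, and none reaches beyond these samples. The members and lists were chosen with earlier results of these data known. Named are all members, the alpha and gamma crystallins, up to 4 called genes of each other list, the 3 genes of most similar pattern, Celf1 and Xist. Crybg1, Csf1r, Hba-a1 and Hbb-b1 were named after their values were seen. Alternatives covered the table, background correction, scaling, filters, how probes of a gene are joined, the variance model, the replicate block, and leaving out each sample.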

Additional observations from a re-analysis of the deposited data

How the results depend on the processing

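The number of members called was 0 in the main analysis and 0 under every alternative except the deposited table plus 16 (3), cyclic loess (1), the same median over commonly detected probes (3) and the same mean over 20 bright probes (1, chosen after seeing the data). In the same order, these settings called 5.71%, 5.88%, 17.6% and 6.91% of all genes reduced. For single probes these settings called 4, 2, 3 and 1 of 8, all reduced, against 5.4%, 6.32%, 17.5% and 7.09% of all probes. The members' median relative to all genes, -0.09 in the main analysis, was -0.70 in the deposited table with and without the added 16, -0.36 with cyclic loess (-0.355), -0.396 with the same median of each array, the same median over detected probes, no scaling and the 20 bright probes, and 0.06 with the brightest probe of each gene (0.057), -0.049 with detection in all samples and -0.002 for Crybb3 without its dim probe, chosen after seeing the data. Leaving out 1 sample at a time gave -0.108 to 0.031, positive only without cKO B. The genes called in all, 1344, numbered 7 in the deposited table, 753 with normexp at offset 50, 5417 with the same median, 2690 with the same median over detected probes, 5788 without scaling, 2223 with the 20 bright probes, 155 without a detection filter and 84 with treat, and 119 to 1256 without 1 sample (119 without cKO B, 296 without Control B, 510 without cKO A). Elevated genes were 51.5% of the calls, against 97.3% with the same median, 97.7% without scaling, 64.2% with the 20 bright probes and 24.8% with the same median over detected probes. The replicate block gave 1757 genes and 0 members. The letters A and B correlated at -0.01 across genes between the groups and are only names. Of the members' values 24 reversed in sign, 8 became called and 104 did neither. Cryba4 and Crybb2 fell to -0.521 and -0.695 in the deposited table (-0.521 and -0.694 plus 16), -0.163 and -0.329 with cyclic loess, -0.383 and -0.557 with the same median over detected probes, and -0.149 and -0.323 with the 20 bright probes. Cryba1, Crybb1 and Crybb3 rose to 0.067, 0.107 and 0.328 with the same median and 0.105, 0.145 and 0.366 without scaling. Cryba1 and Crybb3 were 0.057 and 0.20 by their brightest probe. Leaving out 1 sample at a time gave -0.137 to 0.039 for Crybb1 and -0.249 to 0.032 for Crybb3, both highest without cKO B, and -0.046 (without Control A) to 0.176 for Crybb2. For Cryba4 it gave 0.01 to 0.273, for Cryba2 -0.259 to -0.117 and for Cryba1 -0.136 to -0.109. The cause of these shifts was not tested. A sample left alone in its group was assumed to vary like the other group. A slide block was not run, since the tables used here give no slide.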
